A study of Mus musculus with 18 samples.

Results

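Harringtonine positions that cleared the deposited read minimum only after tunicamycin are described here: single genomic positions with at least 20 reads summed over the 3 tunicamycin libraries and under 20 over the 3 untreated libraries. The rule picked out 1597 of 9025 deposited positions (17.7%), 849 on the forward strand and 748 on the reverse strand, in 1385 of the 4613 genes that held any position. Another 6828 positions reached 20 reads under both treatments and 600 reached it in untreated cells alone. The harringtonine reads themselves chose the members, so their levels are given as a description, without a test.

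The cells were mouse erythroblasts, the precursors of red blood cells, taken from fetal livers of Trp53 -/- animals of the strain FVB/n x C57BL/6 and grown with erythropoietin, stem cell factor and dexamethasone. All groups are labelled Trp53 -/-, controls too. The labels do not say whether the libraries of a group came from separate cultures, so the p-values reflect library-to-library spread, which may be technical. The tunicamycin groups received 2.5 µg/ml for 1.5 h and the untreated groups none. Each treatment had 3 harringtonine libraries (2 µg/ml), 3 footprint libraries made with cycloheximide (100 µg/ml for 5 min) and 3 RNA libraries. The 8 erythroid marker transcripts summed to 4630 ± 173 CPM (reads scaled to the library total) in tunicamycin RNA (SD, n = 3 each). In untreated RNA they summed to 4621 ± 169 CPM. The megakaryocyte list of 3 markers, mostly Gp5, summed to 99.0 ± 5.57 CPM under tunicamycin and 114 ± 2.53 CPM untreated. The mast cell list of 3 markers summed to 142 ± 32.6 CPM under tunicamycin and 141 ± 33.6 CPM untreated. Of these sums Ms4a2 alone made up 139 CPM in each. The lists of 4 markers each for macrophages, for neutrophils and monocytes and for hepatocytes summed to 1.49 ± 0.289, 0.168 ± 0.0342 and 1.60 ± 0.309 CPM under tunicamycin and to 1.58 ± 0.533, 0.233 ± 0.202 and 1.40 ± 0.428 CPM untreated, with C1qa, Ly6c2 and Ttr at 0. Trp53 itself had 1426 to 5281 RNA reads and 232 to 296 CDS footprints per library under tunicamycin, and 1516 to 6060 RNA reads and 223 to 291 CDS footprints untreated, so each of these 12 libraries labelled as null held reads of the gene; gene counts do not show which part is deleted. Total RNA reads were 14.5, 29.2 and 43.5 mega reads (M) under tunicamycin and 30.8, 49.0 and 12.9 M untreated, and leader and CDS footprints came to 4.92 to 5.68 M under tunicamycin and 6.75 to 7.01 M untreated. In such bulk libraries, fewer cells of a type and less RNA per cell cannot be told apart.

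Harringtonine stops ribosomes that have just formed at a start codon while ribosomes already under way run off, so reads gather at sites of initiation. Tunicamycin stops proteins of the endoplasmic reticulum (ER) from receiving N-linked sugars. The stress activates kinases that phosphorylate the initiation factor eIF2, which lowers the supply of initiator tRNA. Most mRNAs are then translated less, while some with upstream open reading frames (uORFs) are translated more, because scanning ribosomes pass start codons they would otherwise use.

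To see what lay under the positions, the bases downstream of them were read from RefSeq windows that reach from 250 bases before to 50 bases after each annotated gene start (GRCm38.p6). Of the members, 148 (9.27%) lay where the bases 12 to 15 on from the mapped position were inside such a window. The sequences below each start at the mapped base and run 30 bases 5′ to 3′ on the strand of the gene, with the start codon triplet that begins 12 or 13 bases on in capitals. The first 6 are the members with an ATG and the highest tunicamycin sums, followed by those with the highest sums for CTG, GTG, TTG and ACG.
Plaur: gaaggaagaacccATGggactcccaaggcg
Qtrt1: ccgggactgaaaATGgcggcggtaggcagc
Tsen54: agacagcggcccgATGgagcccgaacccga
Mesdc2: ctaggctgctaacATGgctgcctccaggtg
Txnrd1: tttttagccgccATGcagagcttttctgag
Lins: actgtactacgaATGgggcttctacgcctg
Tuba1a: ctaagagtcgcgCTGtaagaagcaacacct
Ubxn4: gaaggggacgatgCTGtggttccagggcgc
Ska2: ggaggtcgataagCTGgaactgatggtgag
Slc29a1: ttcgtcgccggagGTGtccttctccagcag
Tmem56: ttttgcacagcgtTTGggcatataagacag
Vwa9: tatggcgcgcggACGgaaggtttaagcgga

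These runs lie, in mm10 coordinates, at chr7:24462497-24462526 (Plaur, plus strand), chr9:21411843-21411872 (Qtrt1, plus), chr11:115814751-115814780 (Tsen54, plus), chr7:83892277-83892306 (Mesdc2, plus), chr10:82860359-82860388 (Txnrd1, plus) and chr7:66689884-66689913 (Lins, plus). The others lie at chr15:98953499-98953528 (Tuba1a, minus strand), chr1:128244461-128244490 (Ubxn4, plus), chr11:87109280-87109309 (Ska2, plus), chr17:45595482-45595511 (Slc29a1, minus), chr3:121263269-121263298 (Tmem56, minus) and chr9:64960882-64960911 (Vwa9, plus). Qtrt1 encodes the catalytic subunit of the enzyme that puts queuine into tRNA, Tsen54 a subunit of the tRNA splicing endonuclease and Txnrd1 a thioredoxin reductase. In Ubxn4 the CTG directly follows an ATG in the same run, so the codon under that position is not settled by its letters. Some runs begin ahead of the annotated gene start of the window read. Relative to that start, the mapped base lay at -131 in Tmem56 and -98 in Ubxn4, the latter in a window of Gm41949. It lay at -48 in Vwa9, -27 in Tuba1a and -5 in Lins, and after the start in the other runs printed above. Tuba1a has near-identical tubulin copies, among which reads can be split. Directly after its CTG comes an in-frame stop, TAA. The frame of the TTG in Tmem56 held 3 codons, counting the TTG, before a TAA. Qtrt1 had 12, 13 and 10 reads in the tunicamycin libraries and 4, 4 and 5 in the untreated libraries. Slc29a1, a nucleoside transporter, had 15, 7 and 5 reads under tunicamycin and 1, 3 and 3 untreated at its GTG. At both the treatments did not overlap, whereas Tsen54, with 11, 9 and 15 reads under tunicamycin and 6, 10 and 3 untreated, did.

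An ATG began 12 or 13 bases on in 42 of the 148 readable members, which is 28.4% (exact 95% binomial interval 21.3 to 36.4%, counting error only). The ATG lay 12 bases on in 22 of them and 13 bases on in 20. Over the other neighbouring pairs of offsets, from 20 bases before to 10 bases after the position, ATG averaged 2.64% of the same members and reached at most 7.43%, and any 4 bases of the 32851 windows held an ATG in 2.54% of cases. CTG, the most used non-ATG start codon, began 12 or 13 bases on in 23 members (15.5%, against 4.88% of all 4-base stretches). ACG did so in 11 (7.43%, against 1.17%), GTG in 9 (6.08%, against 3.42%) and TTG in 3 (2.03%, against 2.92%). Over the members' other offset pairs CTG averaged 4.93% and reached 8.16%, and ACG averaged 2.78% and reached 6.08%. GTG averaged 3.66% and reached 8.11% there, and TTG 2.31% and 4.76%, so these 2 lay within the range of the other offsets. The remaining 60 members (40.5%) had none of these 5 triplets. Positions kept under both treatments had ATG in 24.3% and CTG in 14.2% of readable cases. Positions kept only in untreated cells had ATG in 6 of 39 (15.4%) and CTG in 11 of 39 (28.2%). The motifs were searched on the strand of the gene alone, and a triplet in the right place is a description of the sequence, not proof of initiation.

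**Figure D1:**
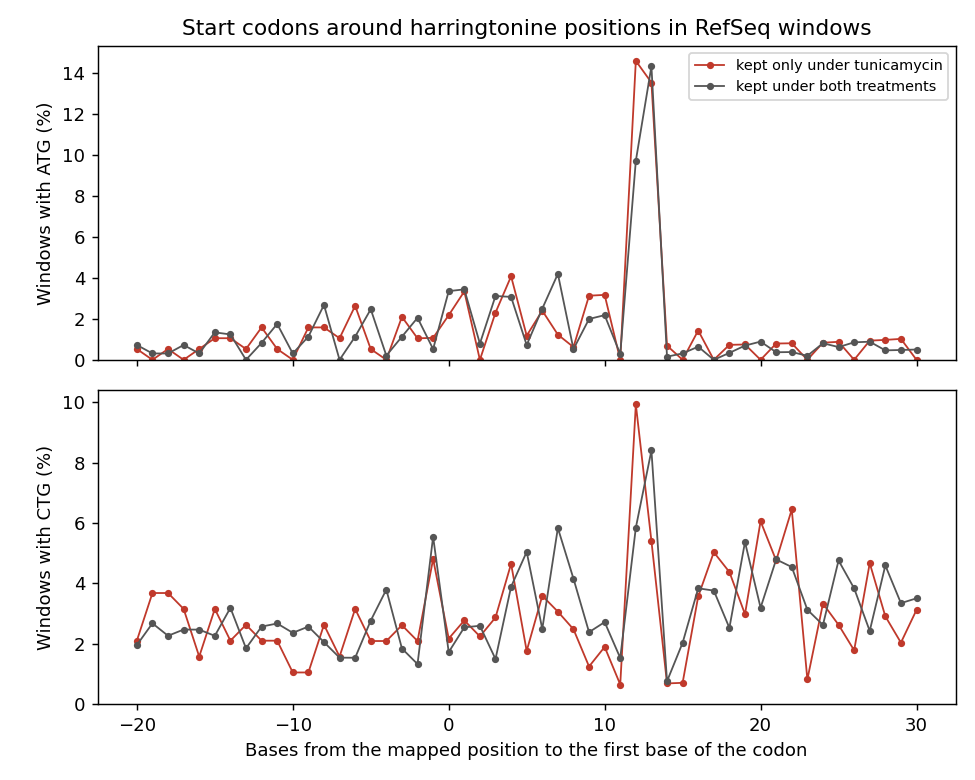
Share of readable windows (%) holding ATG (upper plot) or CTG (lower plot) by the distance in bases from the mapped position to the codon's first base, for positions kept only under tunicamycin (red) and under both treatments (grey). In both sets the ATG share peaks at 12 and 13 bases, where 22 and 20 of the 148 readable tunicamycin-only positions had an ATG.

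A purine 3 bases before the A and a G right after the codon are known to favour recognition of an ATG. The purine was present in 29 of 42 members with an ATG (69.0%) and in 84.0% of positions kept under both treatments. The G was present in 32 of 42 members (76.2%) and in 58.3% of those positions with an ATG that were kept under both. Of the first 6 sequences above, 5 have that G and Txnrd1 has not.

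A second group is shown because the frame that the ATG opens closes at once. In 9 of the 42 members with an ATG, an in-frame stop codon followed before the window ended, and in 6 it lay within the 30 bases. Counting the ATG, the window held from 4 bases (Trp53rk and Nfs1) to 258 bases (Rnf121). Many were too short to show a stop, so 9 of 42 is not the share of short frames. With the same limit, a stop followed in 7 of 23 members with a CTG and 5 of 11 with an ACG. It did so in 2 of 9 with a GTG and 2 of 3 with a TTG. Capitals below mark the ATG and its in-frame stop.
Xpo1: ctccgcggcgccATGggcTGAaaactcaac
Nono: taaacgttaagaaATGgcggacTAAtgaga
Ppp1r13l: ggctgactgtcaaATGgatcgcgtcTGAct
Gm13157: tgatcaggaagttATGgagggagacTAGcg
Rnf121: cggactggtgccATGtttacaatgaaaTAG
Strn3: tgagacgggcagATGgaggaggtaccgTAA

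The frames, counting the ATG, held 2 codons in Xpo1 (chr11:23255945-23255974, plus strand), 3 in Nono (chrX:101429546-101429575, plus), 4 in Ppp1r13l (chr7:19361056-19361085, plus) and in Gm13157 (chr4:147809760-147809789, minus), and 5 in Rnf121 (chr7:102065356-102065385, minus) and in Strn3 (chr12:51691878-51691907, minus). Xpo1 encodes the main nuclear export receptor and Nono an RNA-binding protein of paraspeckles. The Nono position had 8, 4 and 11 reads in the tunicamycin libraries and 1, 3 and 2 in the untreated libraries, so every tunicamycin library was above every untreated one. The Xpo1 position had 9, 8 and 3 reads under tunicamycin and 3, 6 and 3 untreated, and these ranges overlapped. Both lay upstream of the main position of their gene, the kept position with the most reads, by 949 bases in Nono and 651 bases in Xpo1. The windows are genomic, so an intron inside one was not removed before the frame was read. Relative to the annotated gene start of the window read, the mapped base lay at -220 in Rnf121, -160 in Ppp1r13l and -105 in Nono. It lay at -96 in Xpo1, -1 in Gm13157 and 7 in Strn3. Negative values are ahead of that start, so these frames are not shown to lie in annotated leaders.

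The member positions were shallow. Their tunicamycin sums had a median of 24 reads (quartiles 21 and 29, highest 103), and their untreated sums a median of 14 (quartiles 11 and 17, lowest 2). The tunicamycin columns also held more reads over all kept positions, with 648169, 558625 and 590788 reads against 523868, 446561 and 481525 in the untreated columns. These totals cover kept positions alone and are not sequencing depths. Each library was therefore scaled to the mean untreated total, which gave members a median of 6.57 scaled reads per library under tunicamycin and 4.74 in untreated cells.

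The median scaled log2 ratio of the members, tunicamycin over untreated, was 0.56 (quartiles 0.28 and 0.92, range -0.25 to 3.33), against 0.01 over all positions. After scaling, 110 members (6.89%) were no longer higher under tunicamycin, 329 (20.6%) were more than 2-fold higher and 23 more than 4-fold higher. Had the rule been applied to scaled reads, 823 positions would have met it, and 1105 would have been kept in untreated cells alone. In 291 members (18.2%) every scaled tunicamycin library lay above every untreated one, beside 6.23% of all 9025 positions; since the members were chosen on the same reads, nothing is read from that difference. Of the positions kept only in untreated cells, 169 of 600 (28.2%) had every tunicamycin library below every untreated one, beside 5.06% of all positions. The members took up 2.34 ± 0.104% of the kept reads in tunicamycin libraries and 1.52 ± 0.0581% in untreated libraries (SD, n = 3 each).

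**Figure D2:**
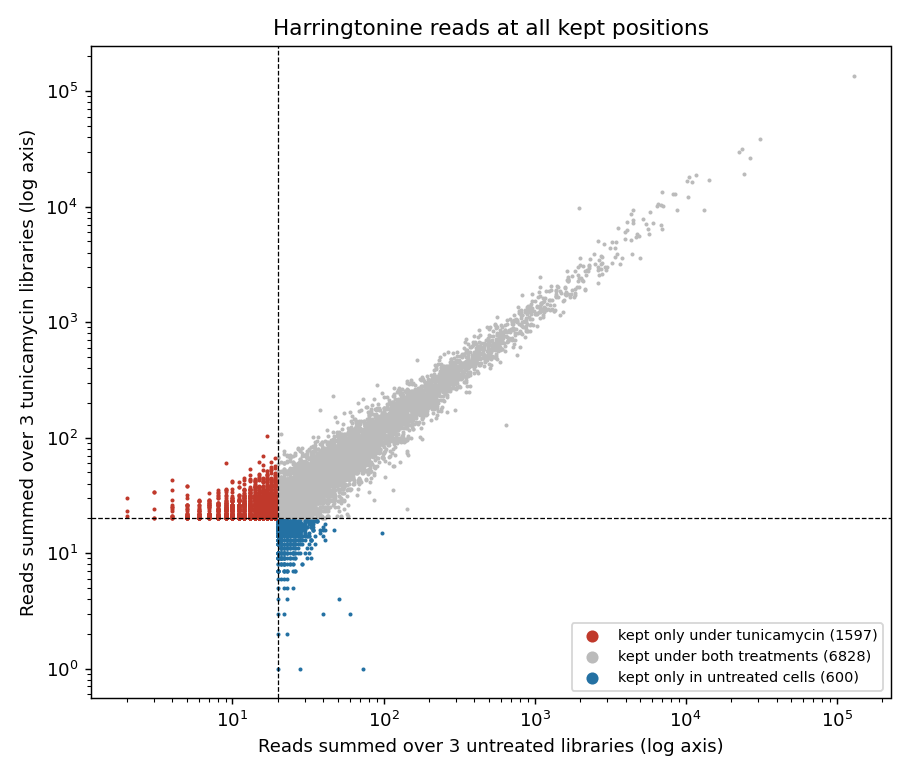
Reads summed over the 3 tunicamycin libraries (vertical, log axis) and the 3 untreated libraries (horizontal, log axis) at each of the 9025 kept positions, with sums of 0 drawn at 1 and dashed lines at the minimum of 20. The 1597 positions kept only under tunicamycin (red) fill the upper left corner, mostly close to the lines: 496 had 17 to 19 untreated reads.

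Many members sat just inside the limits. In 568 members (35.6%) the tunicamycin sum was 20 to 22 reads, and in 496 (31.1%) the untreated sum was 17 to 19 reads, where the median scaled log2 ratio was 0.25. Just outside, the 580 positions kept under both with an untreated sum of 20 to 22 had a median tunicamycin sum of 27 and a median scaled log2 ratio of 0.08. At the other end, 250 members (15.7%) had at most 9 untreated reads, with a median scaled log2 ratio of 1.34, and 80 had at least 40 tunicamycin reads.

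The libraries of a treatment did not contribute evenly to every member. In 185 members (11.6%) 1 library supplied over 60% of the tunicamycin reads, and that library was number 1 in 139 of them, number 3 in 42 and number 2 in 4. Bex4 had 54, 5 and 2 reads in the tunicamycin libraries and 12, 4 and 2 in the untreated libraries. Pla2g12a, which encodes a secreted phospholipase, had 44, 5 and 8 reads under tunicamycin and 8, 3 and 8 untreated. In both genes the ranges overlapped and library 1 was the highest of its treatment or tied for it. Over all 9025 positions the counts of tunicamycin library 1 ranked closest to those of untreated library 1 (Spearman's rho 0.808), closer than to tunicamycin libraries 2 (0.762) and 3 (0.687). The sources used here do not say whether equal numbers share a culture.

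Cd24a, which encodes a small glycosylated surface protein of young blood cells, held 3 members, among them the deepest of all. The position at 43582981 of chromosome 10 (plus strand) had 13, 27 and 63 reads in the tunicamycin libraries and 5, 2 and 10 in the untreated libraries, or 28.2 ± 21.4 and 5.61 ± 4.03 scaled reads (SD, n = 3 each). One base on, 9, 19 and 32 reads under tunicamycin stood against 4, 1 and 4 untreated. The position 69 bases upstream had 34, 7 and 28 reads under tunicamycin and 5, 2 and 9 untreated. The scaled log2 ratios were 2.30, 2.42 and 1.75, but after scaling the libraries of the treatments were apart only at the position 1 base on. The fourth kept position of the gene, further upstream, had 24, 11 and 5 reads under tunicamycin and 13, 4 and 5 untreated, and was kept under both.

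Among the other deep members, Psma7, an alpha subunit of the 20S proteasome, had 23, 13 and 25 reads under tunicamycin and 6, 2 and 7 untreated at its main position, 180039413 of chromosome 2 (minus strand). Eif4b, a cofactor of the initiation helicase, had 15, 15 and 23 reads under tunicamycin and 4, 2 and 7 untreated at 102082077 of chromosome 15 (plus strand). Drosha, the nuclease that crops primary miRNAs, had 21, 20 and 14 reads under tunicamycin and 9, 2 and 8 untreated, 8941 bases downstream of its main position. In these 3 and in Ubap1, Ubap2l and Fastkd2 the scaled libraries of the treatments did not overlap, with scaled log2 ratios of 1.24 to 1.70. Ubap1 shows a common arrangement: its member, with 21, 16 and 21 reads under tunicamycin and 3, 9 and 4 untreated, lay 1 base downstream of a main position with 46, 41 and 47 reads under tunicamycin and 14, 23 and 25 untreated.

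The largest scaled ratios belonged to members with almost no untreated reads. Ms4a2, the beta chain of the high-affinity IgE receptor and a mast cell marker, had 4, 9 and 17 reads under tunicamycin and 1, 1 and 0 untreated at 11617342 of chromosome 19 (minus strand), a scaled log2 ratio of 3.33. Its other kept position, 4 bases on, was also a member, with 3, 9 and 17 reads under tunicamycin and 0, 2 and 2 untreated. The gene's RNA did not pass, at a log2 change of 0.02 (edgeR adjusted p = 0.979). Gart, a purine synthesis enzyme, had 16, 10 and 8 reads under tunicamycin and 1, 0 and 2 untreated, 1494 bases downstream of its main position, whose own counts of 20, 19 and 17 under tunicamycin and 16, 12 and 25 untreated overlapped. Mt2, a metal-binding metallothionein, had 18, 10 and 15 reads under tunicamycin and 2, 1 and 1 untreated, 789 bases downstream of its main position. Pax6, Mrpl18, Vprbp, Zmpste24 and Txn2 had likewise at most 4 untreated reads in all, and their scaled libraries were apart with log2 ratios of 2.54 to 2.94. Hist1h4m and Spcs1 completed the 10 largest ratios, but in Hist1h4m, a histone H4 gene with near-identical copies among which reads can be split, 32 of the 38 tunicamycin reads came from library 3.

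**Figure D3:**
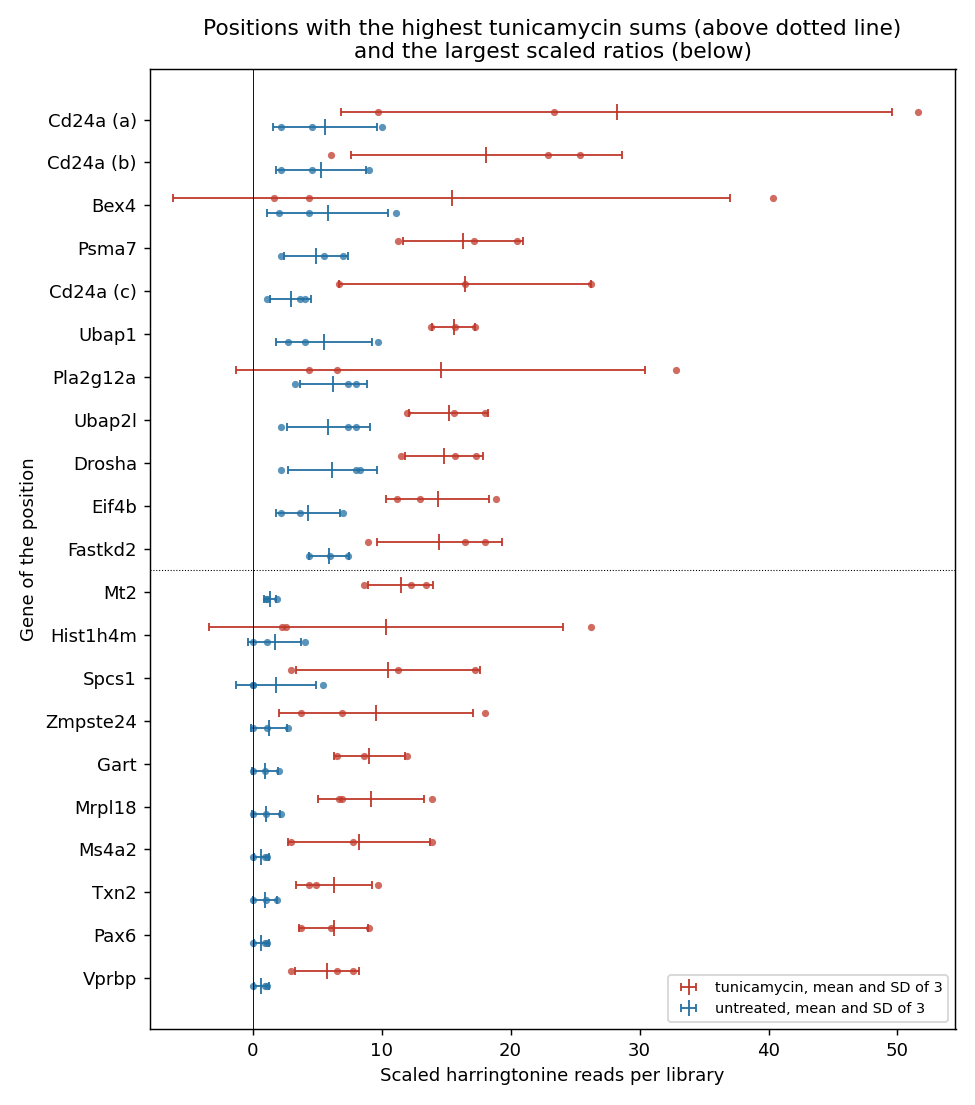
Scaled harringtonine reads per library (horizontal) at 11 of the members with the highest tunicamycin sums (above the dotted line) and the 10 with the largest scaled ratios (below it); red points are the 3 tunicamycin libraries and blue points the 3 untreated libraries, with ticks and bars for mean and SD. Letters in brackets tell apart the members of Cd24a, from the highest sum down. Wide bars at Cd24a (a), Bex4, Pla2g12a and Hist1h4m mark members in which 1 tunicamycin library stands far above the others.

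By their place in the gene, the members were mostly side positions. The largest share, 666 (41.7%), lay downstream of the main position, 321 (20.1%) lay upstream of it, 506 (31.7%) were the only kept position of their gene, and 104 (6.51%) were themselves the main position of a gene with several. Of the positions kept under both treatments 28.9% lay downstream, 14.9% upstream, 23.9% alone and 32.3% were main positions. Of the positions kept only in untreated cells 47.5% lay downstream, 22.8% alone and 4.67% were main positions. A member that was not the main position held a median of 33.3% of the reads of the main one. The depth rule favours shallow positions in all of these comparisons, and no test was made of them.

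**Figure D4:**
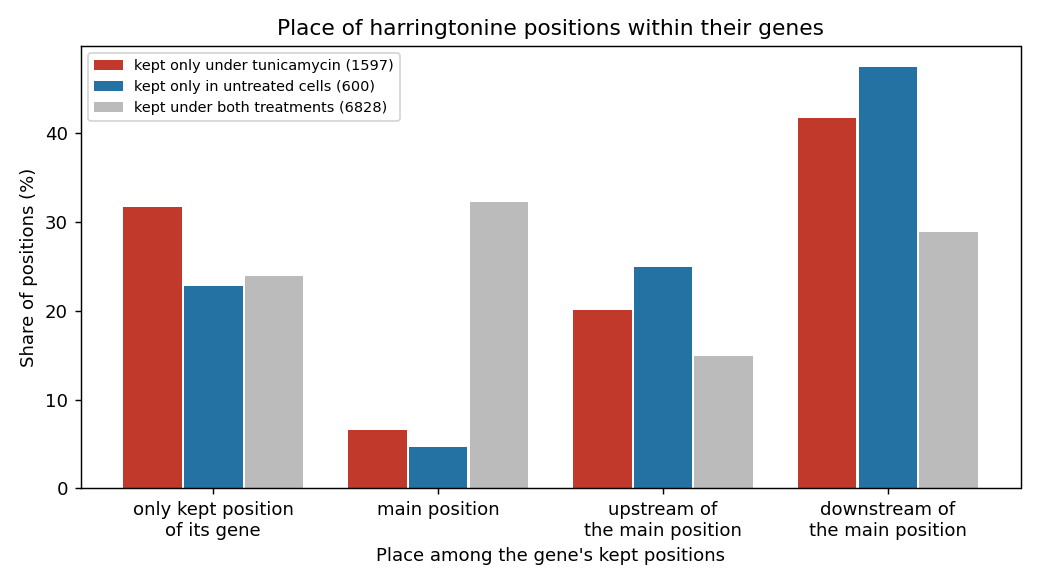
Share of positions (%) that were the only kept position of their gene, its main position, upstream of it or downstream of it, for the 1597 positions kept only under tunicamycin (red), the 600 kept only in untreated cells (blue) and the 6828 kept under both (grey). Main positions are 6.51% of the red and 32.3% of the grey set.

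Many members had a close neighbour. For 284 members (17.8%) another kept position of the gene lay 1 base away, in 228 cases one that was not itself a member. Directly after the main position lay 155 members, 23.3% of those downstream, beside 31.1% of the downstream positions kept under both and 5.26% of those kept only in untreated cells. In 17 of these 155 the sequence could be read, and 8 had an ATG 12 bases on, which is 13 bases from the main position, so that the same ATG lies under both bases. Qtrt1, Txnrd1 and Lins, printed above, are such members, and in Plaur both bases of the pair are members: 7, 13 and 21 reads under tunicamycin and 7, 7 and 5 untreated at the first base, then 6, 9 and 9 under tunicamycin and 3, 3 and 9 untreated at the second. Summing positions within 10 bases before the rule left 1251 members.

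Other members lay far from the main position. Of the downstream members 235 (35.3%) were over 1000 bases on in genomic distance, introns included, beside 64.6% of the downstream positions kept only in untreated cells, and 126 upstream members were over 1000 bases before the main one. The median distance was 297 bases upstream and 129.5 bases downstream. Of the 1593 members whose gene matched RefSeq, 1566 (98.3%) lay within the annotated span, at a median of 632.5 bases from the gene start, against 416 for all positions and 3725 for those kept only in untreated cells. Within 100 bases of the gene start lay 17.6% of members and 22.1% of all positions.

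Most genes held a single member (1205 of 1385, 87.0%), 152 held 2, 25 held 3 and Cct6a and Ywhae held 4 each. In 566 genes no position other than members was kept, and 819 had others as well, among them 169 with a position kept only in untreated cells. The other positions of host genes had ratios near 0: the 1506 that were kept under both treatments had a median scaled log2 ratio of -0.07, and the 5322 in genes without a member -0.03. Cct6a, a chaperonin subunit, and Ywhae, a 14-3-3 protein, held 8 members between them, with scaled log2 ratios of -0.01 to 0.70 and overlapping libraries in each.

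Genes known for translation under eIF2 stress held 4 of the members. Of the 12 genes with positions on a list of mRNAs with regulatory uORFs, 4 held a member. Of all 4613 genes with positions 1385 held one, so by gene the list was not low. By position, 4 of the list's 34 (11.8%) were members, below the 17.7% of all positions. Atf4, the central factor of this response, had none, as its positions were kept under both treatments. Ifrd1, whose mRNA has a uORF that triggers its decay, had 4, 11 and 13 reads under tunicamycin and 1, 1 and 4 untreated at 40223006 of chromosome 12 (minus strand), and 155 bases upstream a position kept only in untreated cells with 2, 5 and 4 reads under tunicamycin and 5, 5 and 12 untreated. Ibtk, an inhibitor of a tyrosine kinase and a known uORF mRNA, had a single kept position with 9, 4 and 8 reads under tunicamycin and 2, 2 and 1 untreated at 85743672 of chromosome 9 (minus strand). Uchl5, a deubiquitinase of the proteasome, also had a single position, with 10, 5 and 6 reads under tunicamycin and 2, 0 and 2 untreated. Ppp1r15b, the constitutive subunit of an eIF2 phosphatase, had 11, 5 and 8 reads under tunicamycin and 5, 0 and 5 untreated, 1500 bases downstream of a main position that was kept only in untreated cells. At Ibtk and Uchl5 the scaled libraries were apart, and at Ifrd1 and Ppp1r15b they overlapped.

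ATF4 targets and ER chaperones held members in 3 of 15 and 5 of 15 genes with positions, beside 1385 of all 4613. Chac1, a glutathione-degrading enzyme, had 1 kept position, with 11, 5 and 10 reads under tunicamycin and 4, 0 and 4 untreated; of the 30 positions of the ATF4 target list 4 were members (13.3%). For ER chaperones and degradation factors it was 7 of 33 (21.2%). Calr, a lectin chaperone, had 9, 8 and 15 reads under tunicamycin and 3, 5 and 5 untreated, 955 bases downstream of its main position. Hspa5, the chaperone BiP, had 8, 11 and 27 reads under tunicamycin and 5, 5 and 9 untreated, 3797 bases downstream.

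The highest shares among the lists were in genes of regulators. Of 15 positions in immediate early genes 5 were members (33.3%). Of 45 in erythroid transcription factors 13 were members (28.9%). They lay in 9 of 14 genes, beside 1385 of all 4613: E2f4, Gfi1b, Ikzf1, Klf1, Ldb1, Lmo2, Lyl1, Nfe2 and Runx1. Kept only in untreated cells were 3 of the 15 and 1 of the 45, beside 600 of all 9025 positions. Klf1, which drives globin genes, had 19, 7 and 10 reads under tunicamycin and 6, 3 and 9 untreated, 43 bases downstream of its main position, and the libraries overlapped. Ier2, an immediate early protein, had 18, 15 and 11 reads under tunicamycin and 7, 2 and 7 untreated, 42 bases downstream of a main position with 113, 109 and 97 reads under tunicamycin and 69, 65 and 77 untreated, and here the libraries were apart. Btg2, an antiproliferative immediate early gene, had 11, 8 and 9 reads under tunicamycin and 3, 3 and 4 untreated at its only position.

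The other lists had shares below that of all positions. Of 191 positions in ribosomal protein genes 13 were members (6.81%), of 82 in haem, iron and membrane genes 6 (7.32%), of 73 in mRNAs of elongation factors with a 5′ pyrimidine tract 6 (8.22%), of 120 in histone genes 13 (10.8%), of 113 in initiation factors 13 (11.5%) and of 102 in cytosolic chaperones 13 (12.7%). Rps27a, a ubiquitin and ribosomal protein fusion, had 11, 8 and 16 reads under tunicamycin and 8, 2 and 2 untreated. Pabpc1, the cytoplasmic poly(A)-binding protein, had 21, 6 and 4 reads under tunicamycin and 7, 4 and 3 untreated. Both overlapped between treatments after scaling. These lists differ in depth, and a deep position exceeds 20 reads under both treatments, so the shares describe the rule as well as the genes.

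RNA, coding-sequence (CDS) footprints and leader footprints come from libraries the rule did not use, and there the genes that held members could be tested, with p-values adjusted over all genes tested by edgeR's quasi-likelihood test. Host genes had a median of 81.2 CPM of RNA in untreated cells and genes with positions but no member 91.3 CPM. In RNA, 6 of 1348 host genes rose (0.445%), beside 0.15% of all 10643 genes tested, and 0 fell, beside 0% of all. Genes with positions but no member rose in 7 of 3129 cases (0.224%) and fell in 0. At an unadjusted p under 0.05, 87 host genes were lower and 150 higher, and by DESeq2 2 were lower. At the same unadjusted cut, 194 of the 3129 genes with positions but no member were lower and 291 higher. Among host genes, Mospd3, Map3k11 and Slc35c2 came nearest to falling, with log2 changes of -0.33, -0.26 and -0.21 (adjusted p = 0.0818, 0.196 and 0.246). Blocking on the number that the RNA libraries share gave 72 rises and 21 falls among host genes. The counts of all genes under that fit are not given here, so nothing is read about host genes from it. Without tunicamycin RNA library 2 or 3, or untreated RNA library 2 or 3, 2 host genes passed.

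Chac1 had 20.3, 30.8 and 32.6 CPM of RNA under tunicamycin and 3.83, 4.06 and 3.57 CPM untreated, a log2 change of 2.87 ± 0.168 (SE, adjusted p = 1.8e-05). Hspa5 had 779, 912 and 933 CPM under tunicamycin and 471, 512 and 556 CPM untreated, a log2 change of 0.78 ± 0.0837 (adjusted p = 0.00405). The libraries were apart in both, and both held under every alternative that gave a result, 9 for Chac1 and 10 for Hspa5. Txnip, an inhibitor of thioredoxin, Polr2a, the largest subunit of RNA polymerase II, and Prpf8, a core splicing factor, rose by 0.67, 0.65 and 0.53 on the log2 scale, but lost their calls without tunicamycin RNA library 2 or 3 or untreated RNA library 2 or 3 (adjusted p = 0.0533 to 0.225). Ier2 rose by 0.39 and lost its call without any of these or untreated library 1 and with RLE scaling (adjusted p = 0.0548 to 0.303).

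In CDS footprints, 21 of 1327 host genes rose (1.58%), beside 1.78% of all 9265 genes tested, and 5 fell (0.377%), beside 0.799% of all. Genes with kept positions but no member rose in 102 of 3065 cases (3.33%) and fell in 28 (0.914%). The host count of 26 was 55 without tunicamycin footprint library 1, 13 without library 2 and 7 without library 3, and 14 and 7 without untreated footprint libraries 1 and 2.

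Of the 4 host genes on the uORF list, 2 rose in CDS footprints. Ifrd1 had 145, 168 and 187 CPM under tunicamycin and 91.7, 91.4 and 82.3 CPM untreated, a log2 change of 0.93 ± 0.104 (SE, adjusted p = 0.000197). Ibtk had 24.0, 28.0 and 35.8 CPM under tunicamycin and 12.8, 14.0 and 15.4 CPM untreated, a log2 change of 1.07 ± 0.161 (adjusted p = 0.00281). Neither gene's RNA passed the test, with log2 changes of 0.02 and -0.04. Uchl5 and Ppp1r15b had log2 changes of -0.06 ± 0.0859 and 0.05 ± 0.0872 in CDS footprints (adjusted p = 0.806 and 0.841).

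Scoc, a small coiled-coil protein of the Golgi, had 17.9, 20.5 and 27.7 CPM of CDS footprints under tunicamycin and 9.17, 6.64 and 8.26 CPM untreated, a log2 change of 1.47 ± 0.192 (adjusted p = 0.000947). Spcs1, a subunit of the signal peptidase and the host of one of the largest position ratios, had 131, 138 and 170 CPM under tunicamycin and 87.3, 82.7 and 106 CPM untreated, a log2 change of 0.68 ± 0.113 (adjusted p = 0.0048). Chac1 rose by 2.04 ± 0.319 and Ier2 by 0.82 ± 0.117 on the log2 scale. These 4 genes, Ifrd1 and Ibtk passed under every alternative that gave a result, 9 for Chac1 and 10 for each of the others. Eif1 and Cox6c also rose, by 1.55 and 0.80 on the log2 scale, but lost their calls without tunicamycin footprint library 2 or 3 or untreated footprint library 1 or 2 (adjusted p = 0.0902 to 0.224). Mplkip rose by 0.92 and lost its call without tunicamycin footprint library 3 or untreated footprint library 2 or 3 (adjusted p = 0.0755 to 0.112). Eif1, which has near-identical copies among which reads can be split, had only 2.82, 4.41 and 2.75 CPM under tunicamycin and 1.05, 0.772 and 1.56 CPM untreated.

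The 5 host genes that fell in CDS footprints were Rpl37a, Nup210, Dym, Papola and Anapc5, by 0.64 to 0.39 on the log2 scale. Papola, the nuclear poly(A) polymerase, had 90.7, 102 and 85.5 CPM under tunicamycin and 122, 131 and 138 CPM untreated, a log2 change of -0.48 ± 0.0949 (adjusted p = 0.0155), and the libraries were apart. Its member, 15987 bases downstream of the main position, had 16, 15 and 12 reads under tunicamycin and 6, 2 and 5 untreated. All 5 lost their calls without tunicamycin footprint library 3 (adjusted p = 0.102 in Dym, 0.108 in Papola, 0.135 in Nup210, 0.202 in Rpl37a and 0.215 in Anapc5). Papola also lost it without untreated library 2 (0.0837), Nup210 and Anapc5 without every library but tunicamycin 1, and Rpl37a, which has near-identical copies, without every library but untreated 3.

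**Figure D5:**
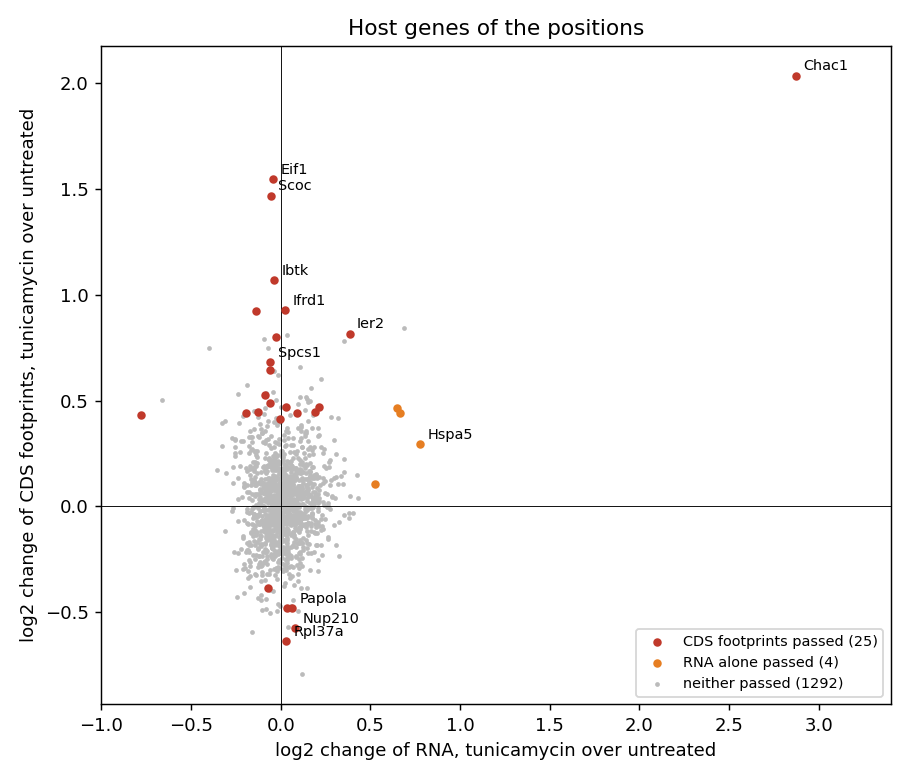
Change of CDS footprints (vertical, log2, tunicamycin over untreated) against the change of RNA (horizontal, log2) for the 1321 host genes with both tests; red points passed in CDS footprints (25 of them), orange points in RNA alone (4) and grey points in neither. Ifrd1, Ibtk, Scoc and Eif1 stand high on the vertical axis near 0 on the RNA axis, and Chac1 is high on both.

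Translational efficiency (CDS footprints relative to RNA) rose in 14 of 1321 host genes (1.06%), beside 1.02% of all 9218 genes tested, and fell in 4 (0.303%), beside 0.38% of all. In genes with positions but no member it rose in 53 of 3055 cases (1.73%) and fell in 9 (0.295%). Scoc, Ibtk and Ifrd1 rose by 1.53 ± 0.207, 1.11 ± 0.161 and 0.91 ± 0.139 on the log2 scale (SE; adjusted p = 0.00438, 0.00737 and 0.00819) and passed under every alternative. Hist1h1b, a linker histone, rose by 1.24 on the log2 scale, but its RNA was 0.696 ± 0.0141 CPM under tunicamycin and 1.06 ± 0.579 CPM untreated. Hist1h1b lost its call in 9 of the 12 fits that leave out 1 library (adjusted p = 0.0585 to 0.216). Spcs1 rose by 0.74 and lost its call without tunicamycin RNA library 3 or untreated RNA library 2 (adjusted p = 0.0502 and 0.0509). Eif1, Mplkip, Hilpda and N4bp2l1 also rose, and Papola, Dym, Etfdh and Usp47 fell, by 0.54 to 0.46 on the log2 scale. These 8 lost their calls without tunicamycin footprint library 3, among others (adjusted p = 0.0719 in Papola to 0.149 in N4bp2l1). The host count of 18 was 44 and 37 without tunicamycin footprint library 1 and untreated footprint library 3, and 10, 4 and 5 without tunicamycin footprint libraries 2 and 3 and untreated footprint library 2. It was 5 and 4 without tunicamycin RNA libraries 2 and 3, and 10, 3 and 8 without untreated RNA libraries 1, 2 and 3.

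The ratio of leader (5′ UTR) to CDS footprints was tested within the footprint libraries. Leaders took 7.86, 7.94 and 10.4% of leader and CDS footprints in the tunicamycin libraries and 5.16, 4.07 and 5.47% in the untreated libraries. Beside that shift of whole libraries, whose part in single genes was not tested, the ratio rose in 639 of 908 host genes tested (70.4%), beside 64.3% of all 4417 genes tested and 68.7% of genes with positions but no member, and fell in 0, beside 0.0679% of all, with 0 lower at an unadjusted p under 0.05 and 0 by DESeq2. The median log2 change was 0.92 in host genes and 0.89 in all genes. Without tunicamycin footprint library 3, 425 host genes passed.

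By place of the member, the leader ratio rose in 172 of 229 host genes with a member upstream of the main position (75.1%, median log2 change 0.94), 310 of 437 with one downstream (70.9%, 0.92), 45 of 62 with a member as main position (72.6%, 1.00) and 167 of 255 with a member as only position (65.5%, 0.88). The last group had the lowest RNA, a median of 52.8 CPM untreated, against 106 CPM for the first and 98.4 CPM for the second.

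The leader ratio rose in several hosts of named members, beside 70.4% of all host genes tested. In Cd24a, leaders held 494, 524 and 734 footprints under tunicamycin and 248, 191 and 174 untreated, and the leader share was 50.4 ± 8.13% and 22.4 ± 5.13% (SD, n = 3 each), a log2 change of the ratio of 1.83 ± 0.289 (SE, adjusted p = 0.000687), while its CDS footprints did not pass (log2 change 0.10, adjusted p = 0.761). In Mt2 the leader share was 21.7 ± 1.17% under tunicamycin and 8.22 ± 3.15% untreated, and the ratio rose by 1.69 ± 0.278 (adjusted p = 0.000827). Both passed under every alternative, as did Gart, Hspa5, Txn2, Uchl5 and Ubap2l. Pla2g12a lost its call without tunicamycin footprint library 3 (adjusted p = 0.0967), and Zmpste24 without tunicamycin footprint library 2 or 3 or untreated footprint library 1 or 2 (adjusted p = 0.0589 to 0.147). By list, the ratio rose in 5 of 5 host genes tested among ER chaperones, 7 of 7 among erythroid transcription factors, 5 of 6 among cytosolic chaperones, 3 of 5 among initiation factors and 1 of 3 on the uORF list, beside the 64.3% of all genes.

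The largest rises of the leader ratio among host genes were in Aimp2, Calr, Pfkm, Rpl37a, Vrk1, Pcna, Gmps and Ptpn7, by 2.57 to 2.24 on the log2 scale. Pcna, the sliding clamp of DNA replication, had 232, 296 and 342 leader footprints under tunicamycin and 102, 77 and 72 untreated, and its leader share was 14.4 ± 2.07% and 3.23 ± 0.538% (SD, n = 3 each), a log2 change of 2.33 ± 0.25 (SE, adjusted p = 0.000213). Calr had a leader share of 0.911 ± 0.388% under tunicamycin and 0.157 ± 0.0761% untreated, so a large change of ratio can rest on a small share. Ifrd1 was lower without passing: its leader share was 14.6 ± 1.6% under tunicamycin and 16.9 ± 0.994% untreated, a log2 change of -0.25 (adjusted p = 0.323). Abhd11 had a log2 change of -0.19 (adjusted p = 0.471).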

How the data were processed

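The authors deposited read counts, not normalised, at single harringtonine positions on 2 strands, and counts of RNA reads and of cycloheximide footprints on 5′ UTR, CDS and 3′ UTR per gene. STAR, HTSeq and edgeR and the builds mm10 and GRCm38 are named per the submitters' processing notes; versions, strand settings and the peak rule are not stated there. Every deposited position had at least 20 reads in 1 treatment. The harringtonine columns are tied to a treatment by their names, and their numbers were not tied to other libraries.

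The members, gene lists and tests were chosen with earlier results of these data known. Each harringtonine library was multiplied by the mean untreated total of kept reads (483985) over its own total; log2 ratios add 0.5 reads to each sum. A position was taken here to be the mapped end of a read. Start codons were sought 12 or 13 bases on in RefSeq windows of 300 bases (GRCm38.p6). Codons of positions outside these windows were not analysed here. The main position of a gene is its kept position with the most reads over 6 libraries. Treatments are called apart where all 3 scaled libraries of one lie above all 3 of the other.

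Genes were tested over the whole table with edgeR 4.0.16 in R 4.3.3 (TMM, filterByExpr with minimum count 10 and minimum total 15, glmQLFit, glmQLFTest, Benjamini-Hochberg; an adjusted p under 0.05 passes). Every adjusted p is from this quasi-likelihood test. TMM sets the typical gene near 0, so a change common to all mRNAs is not seen. Translational efficiency is the interaction of assay and treatment over 12 libraries, and the leader ratio that of feature and treatment with a term for each library. Of the host genes 1364 matched the count table. The tests were tested on simulated data. DESeq2 1.42.0, RLE scaling, no filter, a threshold of 0.1, a replicate block and leaving out each library were alternatives. Between RNA libraries of equal number the deviations from group means correlated at 0.416, 0.312 and 0.191, and between those of unequal number at -0.36 to 0.19. A pairing is therefore not settled, and the main fits use no block. Tables were handled in Python 3.11.15 with pandas 2.3.3 and scipy 1.17.1.

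Named positions are the 12 with the highest tunicamycin sums, the 10 with the largest scaled ratios, those of the 5 genes with the most members, all on the uORF list and up to 3 per other list. Named host genes are up to 8 rises and 8 falls with the largest change per test, or the 3 smallest p-values where none passed; tested genes that host a named position are added. Btg2, Klf1 and Papola's position, the neighbours of named positions and the members shown for their sequence were picked by sum or after their values were seen. Of the genes and positions this rule picks, those of 2 genes are not reported here.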

Additional observations from a re-analysis of the deposited data

How the results depend on the processing

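Membership moved with the scaling and the limits: the 1597 members became 823 with libraries scaled to the mean untreated total, 909 with median-of-ratios scaling, 383 with a tunicamycin minimum of 30 and 250 with under 10 untreated reads. Leaving out 1 harringtonine library gave 1086 to 2060 members. Merging positions within 10 bases left 1251. The ATG share of 28.4% was 33.3% at the minimum of 30, 25.7% without close neighbours and 28.8% in windows of the same symbol; these 3 settings were added after the data were seen.

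Among host genes, 6 passed in RNA, against 31 with no filter, 26 with DESeq2, 93 with the replicate block, 11 at a threshold of 0.1 and 2 to 8 with 1 library left out. CDS footprints gave 26, against 65 with no filter, 139 with the replicate block, 58 at 0.1 and 7 to 55 with 1 library left out. Translational efficiency gave 18, against 53 with DESeq2, 141 with the replicate block, 53 at 0.1 and 3 to 44 with 1 library left out. The leader ratio gave 639, against 691 with the replicate block and 425 to 632 with 1 library left out. The causes were not tested. Counts over all genes under these alternatives are not given here, so a gain or loss cannot be ascribed to host genes in particular. Between footprint libraries of equal number the deviations correlated at 0.348, 0.094 and 0.277, and between those of unequal number at -0.293 to 0.024. Whether equal numbers share a culture is not stated. Of 64 named gene results, 38 passed under every alternative that gave a result, 26 lost the call under at least 1 and 0 changed sign. At a median of 24 and 14 reads, single members are limited by counting error. A genome was not used here, so codons could be read at 148 members.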
